A study of Mus musculus with 4 samples.

Results

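The p200 genes and Aim2 form a family of interferon-inducible genes in 1 stretch of mouse chromosome 1. The 9 genes described here are Ifi202b, Ifi203, Ifi204, Ifi206, Ifi207, Ifi208, Ifi209, Ifi211 and Aim2. They were selected by family membership and taken from the count table by NCBI gene ID. Earlier results of these libraries, those for IFN-γ among them, were already known. Of the 9 genes, 8 had a row among the 27179 genes of the table. RNA-seq was done in MC38, a wild-type mouse colon carcinoma line derived from a C57BL/6 tumour, with 1 library for each of 4 cultures: untreated normoxic control, untreated hypoxic control, IFN-γ under normoxia, and IFN-γ under hypoxia. Oxygen was 20% in normoxia and 1.5% in hypoxia. The study's methods give 5 ng/mL IFN-γ for 24 h as the dose of most experiments, while the labels of these libraries state neither dose nor time, and the time under hypoxia is not given in the sources used here. MC38 is 1 line kept in culture, so the 4 libraries carry no variation between animals and no replicate culture.

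Proteins of this family (also called PYHIN or HIN-200 proteins) carry HIN domains that bind DNA, and most carry a pyrin domain through which they join other proteins. AIM2 is the member with the best known role: it senses double-stranded DNA in the cytosol and recruits the adaptor ASC (gene Pycard) to activate caspase-1. IFN-γ signals through JAK kinases, and p200 genes are long known as interferon targets, mostly studied in macrophages and lymphocytes.

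The depth was even, from 34302971 to 34537939 counts per library, and 3 read pairs (6 counts, from 0.174 to 0.175 CPM, counts scaled to a common library total) were taken as the floor under which a gene was not told from absent. Counts are whole reads per gene as deposited. Even values were in excess among low counts (64.0% to 66.3% of counts from 1 to 10), as when both reads of a pair are counted, so every 95% interval below was computed on halved counts. These intervals cover counting error only. All 12 genes of an IFN-γ response list were called higher with IFN-γ and all 10 genes of a hypoxia response list higher with hypoxia, in the direction of the labels. Of all tested genes 4.76% were called higher with IFN-γ and 8.21% with hypoxia. Both lists were chosen with earlier results of these data known. Colon epithelial markers were at or near 0 (Epcam at most 2 counts, Cdh1, Cdx1, Cdx2 and Cldn7 at 0 in every library, 6 of 11 markers at or under the floor, summed 3.27 to 3.81 CPM), and Krt8 was the highest of them with 48 to 90 counts. Mesenchymal markers were mixed: Vim had 74838 to 81307 counts, Fn1 13791 to 20142 and Col3a1 2233 to 3238, while Col1a1, Col1a2, Pdgfrb and Acta2 had at most 105 and Thy1 had 0.

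With their counts added, the 8 genes in the table gave 3987 counts in the normoxic control, 5918 in the hypoxic control, 8533 with IFN-γ under normoxia and 11251 with IFN-γ under hypoxia. The sum was therefore lowest with neither stimulus and highest with both, 2.85-fold apart (log2 1.51, 95% interval 1.44 to 1.59). IFN-γ went with a 2.16-fold higher sum under normoxia (log2 1.11, interval 1.03 to 1.19) and a 1.92-fold higher sum under hypoxia (log2 0.94, interval 0.88 to 1.005). Hypoxia went with a 1.49-fold higher sum without IFN-γ (log2 0.57, interval 0.49 to 0.65) and a 1.32-fold higher sum with it (log2 0.40, interval 0.34 to 0.46). The sum matters because several of these genes are close paralogs, between which short reads can be split. In all these ratios 0.5 counts were added to each library, and counts were scaled by TMM. Because the cultures were measured in bulk, fewer expressing cells and less RNA per cell cannot be told apart.

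Promoters of the family were compared because the motifs that interferon-activated factors bind are short and known. The interferon-stimulated response element (ISRE) is bound by IRF factors, the GAS element (gamma-activated sequence) is known from promoters of IFN-γ target genes, and the hypoxia response element is bound by HIF. RefSeq windows (GRCm38.p6) ran from 250 bases before to 50 after an annotated start, and exact matches were searched on both strands. Of the 9 genes 8 had a window. Ifi204, the member with most counts, had none, so its promoter was not searched for any motif. The ISRE core GAAANNGAA was found in 5 of these 8 genes (Ifi203, Ifi206, Ifi207, Ifi208 and Ifi211) and in 4 of 4 other family genes with a window (Mndal, Ifi205, Ifi213 and Ifi214), while 8.56% of 32851 mouse windows hold it. The GAS motif TTCNNNGAA was found in Ifi202b, at -148 as TTCTCAGAA, and in none of the other 7 (8.30% of all windows). The hypoxia core ACGTG was found in 0 of the 8 (19.6% of all windows). A match is only a run of letters, and none says that a factor binds there.

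The stretches below show how alike the matches are, with the ISRE core in capitals and 20 bases on either side, 5′ to 3′ on the gene's strand. In Ifi203 the core starts 35 bases before the annotated start, in Ifi211 at -37, in Ifi206 at -40, in Ifi207 at -41, in Ifi208 at -58, in Ifi214 at -79 and in Ifi205 at -134. The windows searched were chr1:173942443-173942742 (Ifi203, minus strand), chr1:173912997-173913296 (Ifi211, minus), chr1:174031706-174032005 (Ifi205, minus), chr1:173741760-173742059 (Ifi207, minus), chr1:173491269-173491568 (Ifi206, minus), chr1:173673415-173673714 (Ifi208, plus), chr1:173535908-173536207 (Ifi214, minus) and chr1:173630609-173630908 (Ifi209, plus), in GRCm38.p6..
Ifi203: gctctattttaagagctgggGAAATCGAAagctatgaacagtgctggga
Ifi211: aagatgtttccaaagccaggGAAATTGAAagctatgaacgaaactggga
Ifi205: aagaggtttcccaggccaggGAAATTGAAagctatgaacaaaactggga
Ifi207: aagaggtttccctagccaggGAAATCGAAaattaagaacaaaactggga
Ifi206: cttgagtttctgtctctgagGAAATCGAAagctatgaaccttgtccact
Ifi208: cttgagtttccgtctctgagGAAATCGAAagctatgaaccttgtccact
Ifi214: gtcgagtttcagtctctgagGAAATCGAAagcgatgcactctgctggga
Ifi209: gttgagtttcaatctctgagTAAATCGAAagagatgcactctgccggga
The Ifi203 stretch is identical to that of Mndal in 49 of 49 bases, and Ifi208 to that of Ifi213 in 49 of 49. Ifi206 and Ifi208 share 48 of 49 bases, Ifi211 and Ifi205 share 45, and Ifi207 and Ifi205 share 43. Ifi209 has no exact match: its nearest stretch, shown with the aligned bases in capitals, shares 44 of 49 bases with Ifi214 and differs in the core by G1T (position 1 is the first base of the core, with the Ifi214 base first). Aim2 and Ifi202b have no stretch like these in their windows, and their nearest shares 23 of 49 bases. The 1 window of Aim2 (chr1:173420354-173420653, plus strand) lies inside the gene, which runs from 173349547 to 173466040. The outer 5′ end of Aim2 at 173349547 was thus not searched.

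**Figure D1:**
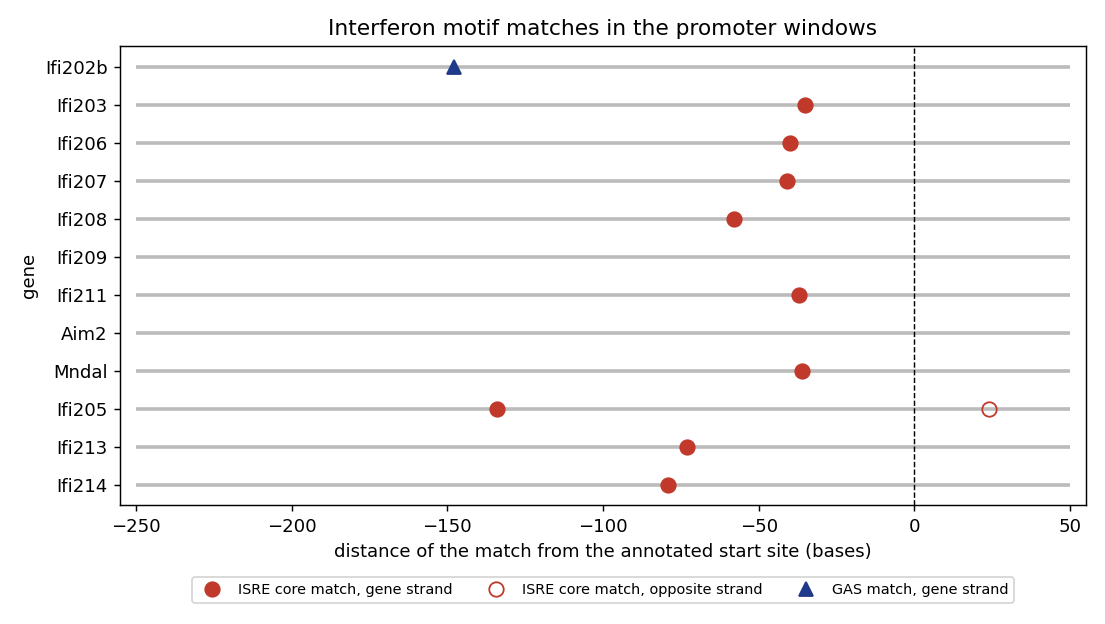
Motif matches in the promoter windows of 12 family genes. Each grey line is a window (x axis, distance from the annotated start in bases), filled circles are ISRE core matches on the gene's strand, the open circle is one on the opposite strand, and the triangle is a GAS match. Of the 2 windows each of Ifi203 and Mndal, matches of the window with the gene-strand core are drawn. The circles of Ifi203, Ifi211, Mndal, Ifi206 and Ifi207 lie between -35 and -41. The windows of Aim2 and Ifi209 hold none, and that of Aim2 lies inside the gene.

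The genes lie between bases 173349547 and 173982844 of chromosome 1 (GRCm38, RefSeq genes), a span of 633298 bases. Aim2 opens the span at 173349547 to 173466040 on the plus strand. Ifi207 (173723424 to 173741831), Ifi204 (173747293 to 173767069), Ifi211 (173896339 to 173913087) and Ifi203 (173920400 to 173942866) lie on the minus strand, and Ifi209 (173630859 to 173647928) on the plus strand. Outside the family, the 5 nearest protein-coding genes on either side, among them Fcer1a, Ackr1 and Cadm3 before Aim2 and olfactory receptor genes at the other end, had at most 2 counts in any library. Between the members, no protein-coding gene from outside the family is annotated.

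Per kilobase of exon, which allows genes to be compared, Ifi211 had the highest level in every library (19.0, 29.3, 44.3 and 54.9 CPM per kb in normoxic control, hypoxic control, IFN-γ under normoxia and IFN-γ under hypoxia). Ifi204 followed with 12.3, 22.0, 28.9 and 42.3 CPM per kb, then Aim2 with 7.57, 7.61, 8.34 and 7.73. Ifi203 came next with 1.39, 1.59, 4.82 and 6.59 CPM per kb, ahead of Ifi207, whose level ran from 0.321 to 1.59, and Ifi209, from 0.147 to 0.856. This order was the same in the 4 libraries. The counting intervals of neighbours in the order did not overlap, except those of Aim2 (7.05 to 8.47) and Ifi203 (6.14 to 7.08) with IFN-γ under hypoxia, and those of Ifi207 and Ifi209 in both controls. Much of the sequence of Ifi211 is shared with other genes: 78.9% of its 31-base words also occur in another annotated gene, and 49.5% occur in Ifi205. The share was 47.2% for Ifi209 (mostly with Ifi214), 34.0% for Ifi204 (18.9% with Ifi211), 21.6% for Ifi203 and 14.8% for Ifi207. It was 4.89% for Aim2 and 1.20% for Ifi202b. Aim2 and Ifi202b are thus the members whose counts depend least on how reads were assigned. The counting program was featureCounts, and its setting for reads that match several genes is not given in the sources used here.

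**Figure D2:**
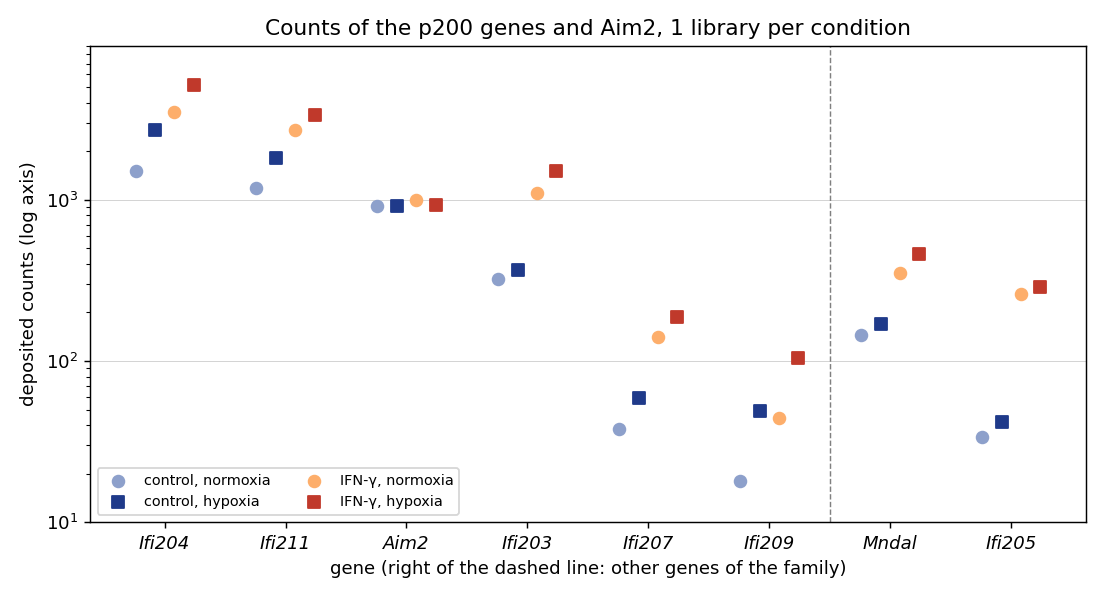
Deposited counts (log axis) of the 6 members above the floor and, right of the dashed line, 2 other family genes, with 1 point per library (circles normoxia, squares hypoxia, blue without and orange or red with IFN-γ). The 4 points of Aim2 lie level, between 918 and 1002 counts, while in Ifi204 they run from 1513 to 5161.

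Ifi204 encodes p204, a nuclear and cytoplasmic protein studied as a regulator of cell growth and as a DNA sensor. It had 1513 counts in the normoxic control, 2708 in the hypoxic control, 3528 with IFN-γ under normoxia and 5161 with IFN-γ under hypoxia. Each stimulus went with a higher count, and the library with both was the highest. With IFN-γ the count was 2.35-fold higher under normoxia (log2 1.24, interval 1.11 to 1.36) and 1.92-fold higher under hypoxia (log2 0.94, interval 0.85 to 1.04). With hypoxia it was 1.79-fold higher without IFN-γ (log2 0.84, interval 0.71 to 0.97) and 1.46-fold higher with it (log2 0.55, interval 0.46 to 0.64). The intervals of the 2 hypoxia changes did not overlap.

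Ifi211, listed in older annotation as Mnda, had the same order, with 1175, 1808, 2711 and 3355 counts in normoxic control, hypoxic control, IFN-γ under normoxia and IFN-γ under hypoxia. IFN-γ went with a 2.33-fold higher count under normoxia (log2 1.22, interval 1.08 to 1.36) and a 1.87-fold higher count under hypoxia (log2 0.90, interval 0.79 to 1.02). The hypoxic libraries were 1.54-fold above the normoxic ones without IFN-γ (log2 0.62, interval 0.47 to 0.78) and 1.24-fold above them with it (log2 0.31, interval 0.20 to 0.41). Adding Ifi205, the gene with which it shares most words, gave 1209, 1850, 2972 and 3643 counts, the same order. For that sum the IFN-γ change was log2 1.31 under normoxia and 0.99 under hypoxia, and the hypoxia change was log2 0.62 without and 0.29 with IFN-γ. Ifi204 and Ifi211 held between them 67.4% of the members' counts in the normoxic control and 73.1% to 76.3% in the other libraries. Ifi204 shares most words with Ifi211, so reads can also be split between these 2. Added together they gave 2688, 4516, 6239 and 8516 counts, the same order. For that sum the IFN-γ change was log2 1.23 under normoxia and 0.93 under hypoxia. The hypoxia change was log2 0.75 without and 0.45 with IFN-γ.

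Ifi203, the longest of the counted members by exon bases, stood lower in the controls, with 323 counts in normoxia and 369 in hypoxia. With IFN-γ it had 1108 counts under normoxia and 1515 under hypoxia. These are differences of 3.46-fold (log2 1.79, interval 1.53 to 2.05) and 4.14-fold (log2 2.05, interval 1.81 to 2.29). The hypoxia change was log2 0.19 without IFN-γ, with an interval from -0.12 to 0.51 that spans 0, and log2 0.45 with IFN-γ (interval 0.29 to 0.61). Adding the pseudogene Ifi203-ps, its closest relative by shared words, gave 325, 377, 1116 and 1520 counts and left these values nearly as they were (IFN-γ changes log2 1.79 and 2.02).

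Ifi207 and Ifi209 were low. Ifi207 had 38 counts in the normoxic control, 59 in the hypoxic control, 140 with IFN-γ under normoxia and 187 with IFN-γ under hypoxia. Its IFN-γ changes were 3.69-fold under normoxia (log2 1.88, interval 1.15 to 2.71) and 3.18-fold under hypoxia (log2 1.67, interval 1.05 to 2.30), and both hypoxia intervals spanned 0 (-0.21 to 1.57 and -0.04 to 0.89). Ifi209, known in older annotation as Pyhin1, was the one counted member in which the hypoxic control (49 counts) stood above the normoxic IFN-γ library (44 counts). The counting intervals of these libraries overlapped (0.264 to 0.602 and 0.227 to 0.548 CPM per kb), so their order is not settled. Ifi209 had 18 counts in the normoxic control and 104 with both stimuli. Hypoxia went with a 2.68-fold higher count without IFN-γ (log2 1.42, interval 0.33 to 2.76) and a 2.35-fold higher count with it (log2 1.23, interval 0.50 to 2.03), and IFN-γ with log2 1.28 under normoxia (interval 0.13 to 2.61) and log2 1.09 under hypoxia (interval 0.36 to 1.82). At these depths most of these intervals are over 1 log2 unit wide.

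Aim2 had 918 counts in the normoxic control, 921 in the hypoxic control, 1002 with IFN-γ under normoxia and 927 with IFN-γ under hypoxia. Its libraries thus differed little. The IFN-γ change was log2 0.14 under normoxia (interval -0.05 to 0.33) and log2 0.02 under hypoxia (interval -0.17 to 0.21), and the hypoxia change was log2 0.01 without IFN-γ (interval -0.18 to 0.20) and log2 -0.11 with it (interval -0.29 to 0.08). All 4 intervals spanned 0, and the largest IFN-γ change they leave room for, log2 0.33, was below the lower bound of Ifi204, Ifi211, Ifi203 and Ifi207 in either oxygen condition. As the other members were higher in the stimulated libraries, Aim2 made up 23.0% of the members' counts in the normoxic control, 15.6% in the hypoxic control, 11.7% with IFN-γ under normoxia and 8.24% with IFN-γ under hypoxia.

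**Figure D3:**
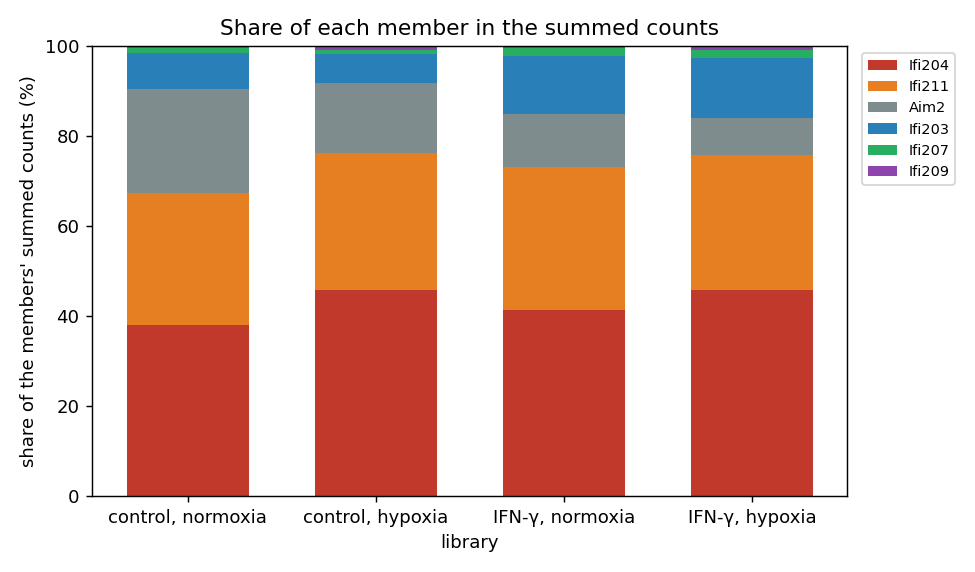
Share of each counted member in the members' summed counts (y axis, percent) in each of the 4 libraries (x axis, stacked bars). The grey part, Aim2, is 23.0% in the normoxic control and 8.24% with IFN-γ under hypoxia, and Ifi203 (blue) is 8.10% and 13.5% in the same 2 libraries.

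The remaining members were at or near 0. Ifi202b, whose protein p202 lacks a pyrin domain and is known to inhibit AIM2, had 2, 4, 0 and 2 counts, all under the floor of 6, and Ifi208 had 0 counts in every library, which allows a level of up to 0.175 CPM. Ifi206 had no row under its gene ID. A row with ID 240921, the number in an older name of Ifi206 (EG240921) and without a symbol in the RefSeq table, had 2 and 4 counts in the normoxic and hypoxic control and 39 and 58 counts with IFN-γ under normoxia and hypoxia. Whether that row is Ifi206 is not settled here. Against the floor, it was at least 6.56-fold higher with IFN-γ under normoxia and at least 9.75-fold higher under hypoxia.

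Other genes of the family outside the 9 showed where the members stand. Ifi205, known for regulating the level of ASC, had 34 and 42 counts in the normoxic and hypoxic control and 261 and 288 with IFN-γ. Its IFN-γ change was 7.65-fold under normoxia (log2 2.94, interval 2.23 to 3.78) and 6.85-fold under hypoxia (log2 2.78, interval 2.12 to 3.53), above the intervals of Ifi204 and Ifi211. Mndal, whose model in GENCODE, unlike that in RefSeq, overlaps Ifi211 and Ifi203 on the same strand, had 146, 169, 349 and 459 counts (IFN-γ changes log2 1.27 and 1.45). Ifi213, Ifi214 and Ifi203-ps had at most 10 counts in any library.

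**Figure D4:**
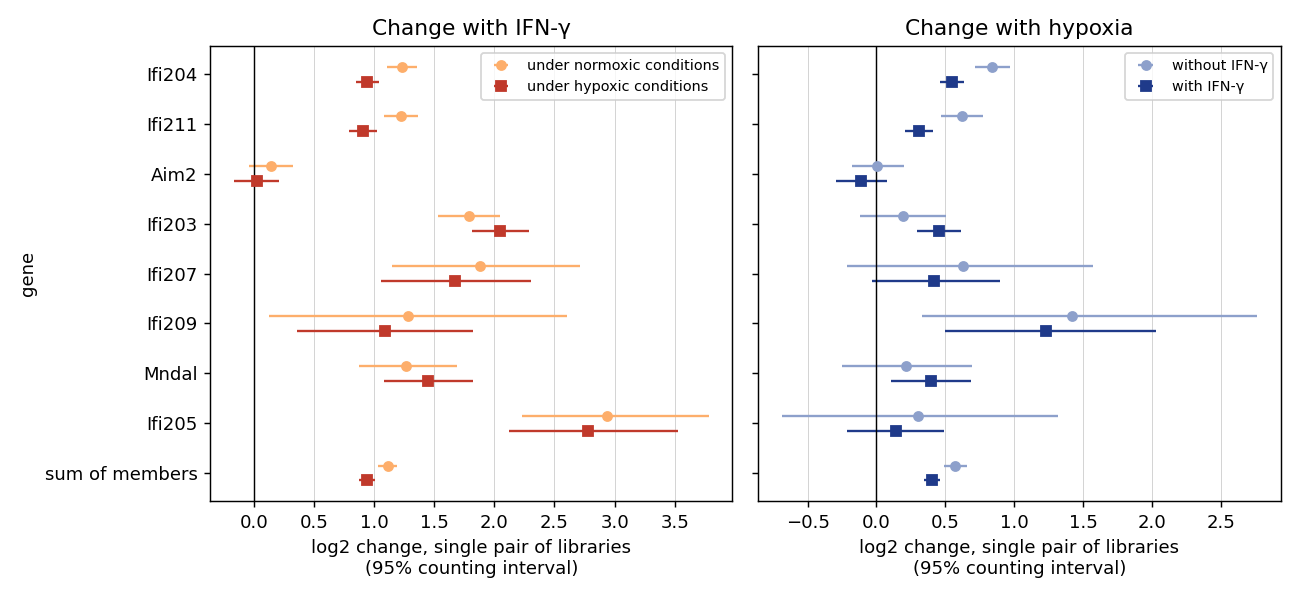
Log2 change with IFN-γ (left, under normoxic or hypoxic conditions) and with hypoxia (right, without or with IFN-γ) in single pairs of libraries, for 6 members, Mndal, Ifi205 and the sum of members, with 95% counting intervals as bars. All IFN-γ intervals but those of Aim2 lie right of 0, and in the right panel those of Ifi204, Ifi211, Ifi209 and the sum do so in both pairs.

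The effect of hypoxia was tested across all genes with the quasi-likelihood test of edgeR. Because the members were chosen with earlier results of these data known, the p-values are to be read with that limit. The model held oxygen and IFN-γ as additive terms over the 4 libraries. Its spread comes from departures from additivity, with 1 residual degree of freedom per gene. In the main fit it was pooled fully across genes, so a gene's own departure had no weight of its own. It is not a spread between replicate cultures. Of the 9 members, 6 passed the filter on low counts. Ifi204, Ifi211, Ifi209 and Ifi203 rose with hypoxia and 0 fell, where 8.21% of 13580 tested genes were called higher with hypoxia and 6.83% lower. The median fitted change of the 6 was log2 0.47, against 0.00 over all tested genes. A rise with hypoxia was not particular to the family. Of the 12 genes of the IFN-γ response list, 8 were called higher with hypoxia and 1 lower, with a median of log2 0.22.

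Ifi204 rose by log2 0.69 ± 0.06 (SE, adjusted p = 3.28e-24 by edgeR), and under the alternatives that kept both stimuli in the model its adjusted p ran from 1.81e-10 to 2.52e-06. Ifi211 rose by log2 0.46 ± 0.07 (edgeR adjusted p = 4.09e-09, alternatives 9.58e-06 to 0.00104). Ifi209 rose by log2 1.32 ± 0.32 (edgeR adjusted p = 0.000786, alternatives 0.00206 to 0.00569, with no adjusted p from DESeq2). Ifi203 rose by log2 0.36 ± 0.09 (edgeR adjusted p = 0.00147, alternatives 0.00198 to 0.250), and DESeq2 gave the 0.250, so its call was lost there. Ifi207 had log2 0.49 ± 0.22 (edgeR adjusted p = 0.124) and Aim2 log2 -0.05 ± 0.08 (edgeR adjusted p = 0.752). The sum of members rose by log2 0.48 ± 0.06 (edgeR adjusted p = 6.83e-16, alternatives 1.47e-11 to 1.43e-05). For Ifi204, Ifi211 and the sum, the counting intervals of the 2 single-pair hypoxia changes did not overlap. Their fitted values thus stand between a larger change without IFN-γ and a smaller one with it. In the main fit the spread was pooled fully across genes (infinite prior degrees of freedom), whereas in the edgeR alternatives with both stimuli in the model the median prior degrees of freedom were 16.5 to 33.3 for the single genes and 15.9 to 63.8 for the sum. The adjusted p-values of the 4 called members and the sum were larger in each alternative than in the main fit, and those of Ifi207 and Aim2 lay on either side of it (0.110 to 0.145 and 0.709 to 0.943). With IFN-γ left out of the model, its change counts as spread and 0 members were called. Of the other family genes, Mndal had log2 0.32 ± 0.14 (edgeR adjusted p = 0.0982) and Ifi205 log2 0.18 ± 0.19 (edgeR adjusted p = 0.601).

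For IFN-γ the same fit is given as a description, since the members were chosen with that contrast known. The same holds for the gene lists below, which were chosen with earlier results of these data known. Fitted changes were log2 1.93 for Ifi203, 1.77 for Ifi207, 1.17 for Ifi209, 1.08 for Ifi204, 1.06 for Ifi211 and 0.08 for Aim2. By the same threshold 5 members were higher and 0 lower, where 4.76% of tested genes were called higher with IFN-γ and 1.1% lower. DESeq2 called 4 higher, without Ifi209. The median over the 6 was log2 1.13, against -0.01 over all tested genes.

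Whether hypoxia went with a larger or smaller IFN-γ change could not be tested, since an interaction term leaves no residual degree of freedom with 1 library per condition. The IFN-γ change under hypoxia minus that under normoxia was log2 -0.29 for Ifi204 (interval -0.45 to -0.14) and -0.32 for Ifi211 (interval -0.50 to -0.13), so both had a smaller fold under hypoxia beyond counting error. For Ifi203 the difference had the other sign, log2 0.26, with an interval from -0.08 to 0.60 that spans 0. Aim2 gave log2 -0.12 (interval -0.38 to 0.14) and the sum -0.17 (interval -0.27 to -0.07). Without Ifi204 the sum gave log2 -0.09, with an interval from -0.23 to 0.04 that spans 0. Without Aim2 it gave log2 -0.25 (interval -0.36 to -0.14). Over the 10443 genes that reached 100 counts in each of the libraries, the central 95% of this difference ran from log2 -0.36 to 0.40, and every value named here lies inside that range.

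**Figure D5:**
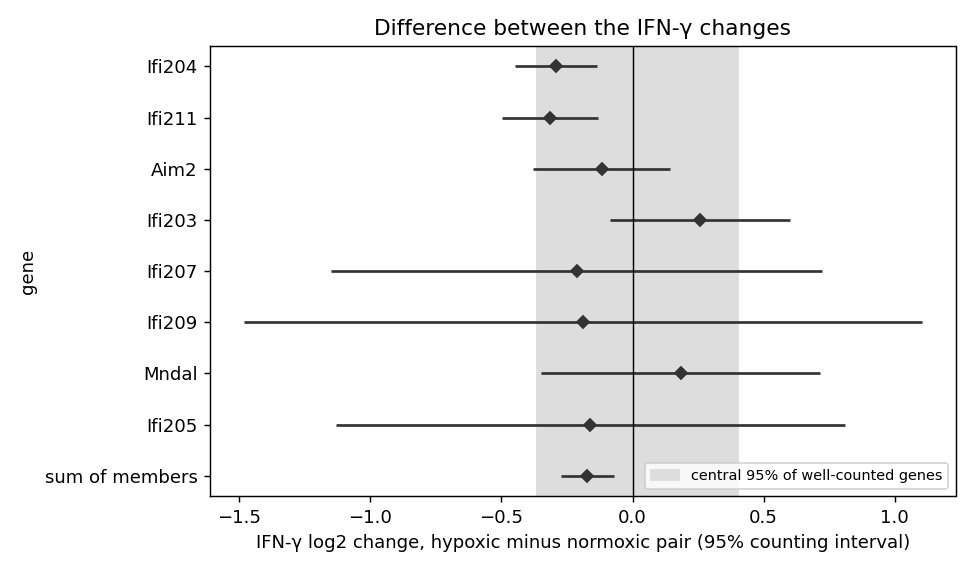
Difference between the IFN-γ log2 changes, hypoxic minus normoxic pair (x axis), for 6 members, Mndal, Ifi205 and the sum of members, with 95% counting intervals as bars. The grey band is the central 95% over well-counted genes, from -0.36 to 0.40. All points lie inside the band, with Ifi204, Ifi211 and the sum below 0 over their whole interval.

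Genes with profiles most like the members' sum were found by the distance between centred log2 CPM profiles over the 4 libraries, among 11481 genes whose mean count was 50 or more. The nearest was Oas3 (distance 0.111), which makes the second messenger that activates RNase L in antiviral defence, with 3013, 4050, 5965 and 7811 counts in normoxic control, hypoxic control, IFN-γ under normoxia and IFN-γ under hypoxia. Oas2, of the same enzyme family, was next (0.152), followed by the protease gene Ctso (0.193), Apol9a (0.218) and the cytokine gene Lif (0.223). With 4 points per profile these distances are a description.

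Of the 16 inflammasome genes listed 6 were at or under the floor in all libraries, the adaptor of AIM2 among them. Pycard, the gene of the adaptor ASC, had 0, 0, 0 and 2 counts, and Gsdmd, the gene of the pore-forming gasdermin D, had 3, 0, 0 and 8. Il1b had at most 2 counts, Il18 at most 7 and Nlrp3 at most 8. Casp1, the caspase that AIM2 activates through ASC, had 292 and 326 counts in the controls and 865 and 875 with IFN-γ, a fitted IFN-γ change of log2 1.51 ± 0.10 (edgeR adjusted p = 4.51e-46). Casp8 (2761 to 3131 counts), Nek7 (3235 to 3787) and Ninj1 (489 to 496) were well counted and not called with either stimulus. Casp4, which binds bacterial lipopolysaccharide, had 555, 597, 919 and 1042 counts (IFN-γ log2 0.78 ± 0.09, edgeR adjusted p = 2.11e-16). Of the 16 genes of the list 5 passed the filter, and the median IFN-γ change of the 5 was log2 0.01. With IFN-γ 2 were called higher and 0 lower, where 4.76% and 1.1% of all tested genes were. With hypoxia 0 were called in either direction, where 8.21% of all tested genes were higher and 6.83% lower.

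Of 16 genes of cytosolic DNA sensing 15 were tested, with 5 higher and 0 lower with IFN-γ, where 4.76% and 1.1% of all tested genes were. These were Zbp1, a sensor of Z-form nucleic acids (120, 159, 2531 and 3214 counts, log2 4.38), Irf7 (log2 1.37), Samhd1, which degrades dNTPs (log2 0.64), Cgas, the enzyme that makes cGAMP on DNA (log2 0.28), and the kinase gene Tbk1 (log2 0.24). With hypoxia Zbp1 (log2 0.36) and Lrrfip1 (log2 0.29) rose and Cgas fell by 0.24 on the log2 scale, 2 and 1 of 15, which is close to the 8.21% higher and 6.83% lower of all tested genes. Sting1, through which cGAMP and p204 are described to act, had 300, 328, 314 and 352 counts and was not called with either stimulus (edgeR adjusted p = 0.872 with IFN-γ and 0.496 with hypoxia).

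Of the 11 genes of IFN-γ signalling 10 were tested, 7 were called higher with IFN-γ (among them Irf1 log2 2.43, Stat2 1.51, Socs1 1.5, Irf9 0.82, Irf2 0.79 and Jak2 0.56), and the receptor gene Ifngr1 fell by 0.25 on the log2 scale (all tested genes: 4.76% higher and 1.1% lower). With hypoxia 5 were higher (Jak2 log2 0.30, Jak1 0.29, Stat2 0.25, Ifngr1 0.24 and Irf1 0.24) and 0 lower, where 8.21% and 6.83% of all tested genes were. Their part in the values of the p200 genes was not tested.

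Macrophages and lymphocytes also use p200 genes, and their markers were read beside the family. Of 10 myeloid markers 5 were at or under the floor, the defining genes Adgre1, Itgam and Spi1 were at 0 in every library, and the summed level was 23.3 to 27.6 CPM, made up mostly of Cd14 (538 to 611 counts) and Cd68 (170 to 236 counts). Of the 4 that were tested, 0 were called with IFN-γ or hypoxia. Of all tested genes, 4.76% were higher and 1.1% lower with IFN-γ, and 8.21% and 6.83% with hypoxia. Lymphocyte markers summed to 0.671 to 1.53 CPM, and 5 of 8 were at or under the floor in all libraries. A part of such cells in the values of the p200 genes was not tested.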

How the data were processed

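Poly-A RNA of 4 MC38 cultures was made into strand-specific libraries and sequenced from both ends on a DNBSEQ instrument, and reads were aligned with HISAT2 per the study's methods. The authors deposited raw counts per NCBI gene ID in 1 table, made per the labels with featureCounts on mm10. Versions, annotation and strand setting are not given in the sources used here. All columns were used, and the counts were neither normalized nor filtered by the authors.

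The members and all gene lists were chosen with earlier results of these data known, and every member is named. The other genes named come from fixed lists or the likeness rule. List genes not named enter the counts only, and 1 gene is not reported here. Symbols came from RefSeq (GRCm38.p6), matching 25275 of 27179 IDs. Hypoxia was tested with edgeR 4.0.16 (R 4.3.3): quasi-likelihood test, TMM (factors 0.993 to 1.01), filterByExpr with a minimum of 10 counts, and Benjamini-Hochberg adjustment over 13580 genes at 0.05. The test was checked on simulated data. Single-pair changes have exact conditional (Clopper-Pearson) 95% intervals on halved counts. Halving, and the floor of 3 pairs, were decided after the counts were seen. Exon lengths and 31-base words came from GENCODE M21, and promoter windows from RefSeq. Protein sequences were not used here. Alternatives were DESeq2 (1.42.0) and its size factors, total counts, other filters, 5 in place of 0.5 added counts, either stimulus left out, each pair alone, halved counts, and sums over other sets of genes. Changes between 2 libraries compare those libraries, not cultures in general.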

Additional observations from a re-analysis of the deposited data

Results flagged for a closer look

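The change of Aim2 with hypoxia had opposite signs in the 2 pairs, log2 0.0072 without IFN-γ and -0.111 with it. Each pair is 1 library against 1, both intervals span 0, and the difference was not tested.

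The row with gene ID 240921, which carries no symbol and stands outside the comparisons of the 9 genes, had 39 counts with IFN-γ under normoxia and 58 with IFN-γ under hypoxia, above the 2 and 4 counts of the controls. Added to the sum of members, it moved the IFN-γ change from log2 1.11 to 1.12 under normoxia and from 0.94 to 0.95 under hypoxia.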

How the results depend on the processing

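Over 23 results and 180 alternative values, 148 counted as the same. Changes did so where they kept direction and side of the threshold or moved less than the counting interval. Numbers of called members did so where they changed little, as DESeq2's 4 in place of 5 with IFN-γ. Of the rest, 14 lost a call or had clearly fewer members called, 18 moved further and 0 reversed. With the other stimulus left out of the model, the hypoxia change of the sum was log2 0.46 with its call lost (edgeR adjusted p = 0.664), the members called higher with hypoxia went from 4 to 0 and those higher with IFN-γ from 5 to 2. DESeq2 called 2 members higher with hypoxia. Each pair alone gave log2 0.57 without and 0.40 with IFN-γ for the sum. Without Ifi204, the member with most counts, the sum's change was log2 1.03 with IFN-γ under normoxia, and with hypoxia 0.38 without and 0.28 with IFN-γ. Without Aim2 it was log2 1.31 with IFN-γ under normoxia, 1.06 with IFN-γ under hypoxia, and 0.71 with hypoxia in the libraries without IFN-γ. No paired analysis was possible because each condition has 1 library, so the shared number 1 pairs nothing. Depth limits Ifi207 and Ifi209, whose intervals are wide, and Ifi202b and Ifi208, which lie under the floor. Without replicate cultures no value here measures variation between cultures.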
